A study of Rattus norvegicus with 14 samples.

Results

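The melatonin-producing pineal gland of the rat was sampled in the middle of the night and again shortly before dawn, and the transcripts of both pools were set against each other. The comparison covers 5964 of 16472 genes (36.2%), those with at least 5 FPKM in either pool after the values of all transcripts with 1 gene ID were added. FPKM, fragments per kilobase of transcript in proportion to all fragments of a library, is a relative level per length. Both pools came from Sprague-Dawley rats aged 6 to 8 weeks in a cycle of 14 h light and 10 h darkness, 10 glands a pool, at zeitgeber time 19 (ZT19, 5 h after lights off) and at ZT23 (9 h after lights off). Pineal pools of the light phase (ZT1, ZT7, ZT13) and of ZT15, 1 h after lights off, gave the course over the day, retinal pools of 10 animals from the same 6 times gave another tissue, and mixed tissue (15 tissues of 3 animals) was pooled at ZT7 and ZT19. The animals carried no genetic change or treatment that the labels name. Each tissue and time has 1 pool, so no difference below has a replicate check and none was tested: a fold is a description of these libraries.

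At night the sympathetic nerves that end in the pineal gland release noradrenaline, which acts on adrenergic receptors of the pinealocyte and raises cyclic AMP. Cyclic AMP activates protein kinase A, which phosphorylates the transcription factor CREB, and CREB bound to cAMP response elements (CREs) switches on genes such as *Aanat*, whose enzyme makes the immediate precursor of melatonin. Some of the induced genes encode brakes on signalling, among them the repressor form of *Crem*, called ICER, and *Dusp1*, a phosphatase of MAP kinases. The gland descends from the same lineage as retinal photoreceptors and expresses many phototransduction genes.

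Genes were sorted by where in the night they stood above or below day and dusk. A gene was called early transient where ZT19 was at least 2-fold over ZT23 and at least 2-fold over the highest of ZT7, ZT13 and ZT15, and late night where ZT23 was at least 2-fold over ZT19 and over the same day and dusk level. Sustained genes were within 2-fold between ZT19 and ZT23 and at least 2-fold over that level in both pools. The mirror classes are late fall (ZT23 at least 2-fold under ZT19 and under the lowest of ZT7, ZT13 and ZT15), mid-night dip (ZT19 at least 2-fold under ZT23 and under that lowest level) and night low (both pools under it, within 2-fold of each other). All folds were taken on FPKM + 1, and a log2 difference is ZT19 minus ZT23 on log2(FPKM + 1), which understates the change of low genes. The rule gave 26 early transient, 95 sustained, 22 late night, 16 late fall, 22 night low and 5 mid-night dip genes.

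To show the promoters of these classes, RefSeq promoter windows (GRCr8 build, 250 bases before to 50 after a start site) were searched for the full CRE, TGACGTCA, and for its shorter core, TGACG, on both strands. Every full CRE also holds the core. Windows were found for 4972 of the 5964 genes, and some genes have several start sites. At least 1 window held the core in 9 of 19 early transient genes (47.4%), in 38 of 83 sustained genes (45.8%) and in 6 of 17 late night genes (35.3%), against 36% of the matched genes of the filter and 23% of all genes of the table. The full CRE was found in 2 of 19 early transient genes (10.5%), 6 of 83 sustained genes (7.23%) and 1 of 17 late night genes (5.88%), against 3.98% of matched genes and 2% of the table. Of 13 late fall genes 1 held the core (7.69%), and of 20 night low genes 4 (20%). With so few genes these shares are descriptions, and a match is not a site in use.

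The windows below show how unlike the promoters of the early transient genes are in this respect, with every TGACG or CGTCA core and full CRE in capitals, read 5′ to 3′ along the gene. The windows of *Dio2* and *Osbpl6* were printed by rule, being among the largest differences, and those of *Dusp1* and *Crem* were chosen after the full CRE was seen in them. *Dio2*, the leading early transient gene, has no core in its window, while *Osbpl6* has a core at 171 and another at 112 bases before its start. The rule also gave the windows of *Cyp2s1* and *Dsc2*, which hold no core and are not printed.
Dio2, chr6:115410545-115410844, minus strand: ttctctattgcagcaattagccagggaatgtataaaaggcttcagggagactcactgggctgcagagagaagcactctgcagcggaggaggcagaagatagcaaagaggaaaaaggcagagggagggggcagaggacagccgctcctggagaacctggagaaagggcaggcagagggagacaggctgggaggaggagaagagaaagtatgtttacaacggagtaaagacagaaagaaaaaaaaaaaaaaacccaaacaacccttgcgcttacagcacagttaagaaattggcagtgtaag
Osbpl6, chr3:81845781-81846080, plus strand: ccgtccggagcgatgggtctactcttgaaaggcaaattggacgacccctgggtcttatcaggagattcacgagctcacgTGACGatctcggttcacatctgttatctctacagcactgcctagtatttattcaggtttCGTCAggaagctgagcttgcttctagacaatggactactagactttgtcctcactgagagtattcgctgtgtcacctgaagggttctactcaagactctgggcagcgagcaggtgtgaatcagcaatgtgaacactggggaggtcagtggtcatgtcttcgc
Dusp1, chr10:17184603-17184902, plus strand: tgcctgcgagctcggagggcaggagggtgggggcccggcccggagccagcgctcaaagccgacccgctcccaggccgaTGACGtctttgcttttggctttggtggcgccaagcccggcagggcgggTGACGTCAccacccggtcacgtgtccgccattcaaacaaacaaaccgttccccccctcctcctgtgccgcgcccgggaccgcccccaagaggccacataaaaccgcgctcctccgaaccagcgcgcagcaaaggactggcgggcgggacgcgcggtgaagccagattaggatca
Crem, window of a downstream start site, chr17:58984547-58984846, plus strand: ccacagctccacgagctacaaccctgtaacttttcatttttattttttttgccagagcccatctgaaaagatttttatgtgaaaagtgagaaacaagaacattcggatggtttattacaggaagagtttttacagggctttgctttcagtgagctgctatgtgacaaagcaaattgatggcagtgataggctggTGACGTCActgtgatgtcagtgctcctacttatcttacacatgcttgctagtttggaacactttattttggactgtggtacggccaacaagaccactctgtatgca
Crem, window of the most downstream start site, chr17:58985240-58985539, plus strand: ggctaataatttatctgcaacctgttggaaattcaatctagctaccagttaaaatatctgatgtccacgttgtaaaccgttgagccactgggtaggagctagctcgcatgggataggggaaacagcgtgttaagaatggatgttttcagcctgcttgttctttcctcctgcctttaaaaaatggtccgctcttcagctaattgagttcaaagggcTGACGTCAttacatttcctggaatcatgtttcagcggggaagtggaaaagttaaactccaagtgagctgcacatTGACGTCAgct
The *Dusp1* window has a full CRE 124 bases before the start and a further core 172 bases before it. *Crem* has 3 windows: the upstream one holds no full CRE, the next holds 1 at 56 bases before the start, and the last holds 2, of which 1 lies 35 bases before the start and the other 40 bases into the transcript. *Crem* is also the early transient gene that stood highest over its day and dusk level after lights on.

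For contrast, 2 late night windows follow, those of *Cox8a*, the leading gene of that class with a promoter entry, and of *Cdk5r2*, both by rule. The rule also gave the windows of *Nradd* and *Defb24*, which hold no core and are not printed. The *Cox8a* window has the only full CRE among late night genes, 76 bases before the start, and *Cdk5r2* has a core 189 bases before its start.
Cox8a, chr1:213833574-213833873, minus strand: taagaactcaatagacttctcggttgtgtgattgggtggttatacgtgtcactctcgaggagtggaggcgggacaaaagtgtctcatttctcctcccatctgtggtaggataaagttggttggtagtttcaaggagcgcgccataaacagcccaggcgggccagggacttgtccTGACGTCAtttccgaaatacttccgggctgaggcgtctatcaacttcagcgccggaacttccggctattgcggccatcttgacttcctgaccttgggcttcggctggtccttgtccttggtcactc
Cdk5r2, chr9:83864672-83864971, plus strand: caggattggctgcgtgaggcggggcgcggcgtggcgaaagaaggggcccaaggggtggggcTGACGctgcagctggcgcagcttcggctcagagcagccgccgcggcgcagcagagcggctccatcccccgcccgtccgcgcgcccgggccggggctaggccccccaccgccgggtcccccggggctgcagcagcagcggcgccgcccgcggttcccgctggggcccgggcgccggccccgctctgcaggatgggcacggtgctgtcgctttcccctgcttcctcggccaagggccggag
The E-box CACGTG, which clock factors bind, lay in windows of 3 of 19 early transient (15.8%), 1 of 17 late night (5.88%) and 5 of 20 night low genes (25%), against 9.77% of matched genes. A pair of heat shock elements, GAANNTTC, was found in 1 of 19 early transient and in none of the 17 late night genes, against 5.21%. The endoplasmic reticulum stress element (CCAAT, 9 bases of any kind, then CCACG) lay in 2 of 83 sustained genes (2.41%), *Hspa5* and *Xbp1*, against 0.221% of matched genes.

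Between mid-night and the end of the night, 54 genes of the filter (0.905%) were at least 2-fold higher at ZT19 and 67 (1.12%) at least 2-fold higher at ZT23. At 4-fold there were 3 genes in each direction (0.0503% each): *Dio2*, *Cyp2s1* and *Nr4a3* at ZT19, and the transcript NM_001100994, *Mir344a-2* and *Cox8a* at ZT23. NM_001100994 lies at the locus of a pseudogene of *Rpl37a*, and its level cannot be read as that of 1 gene. Most genes stayed close: 90.2% were within 1.5-fold, 98.0% within 2-fold, and the log2 differences had a median of -0.08 with an SD of 0.38 across genes. The split of the calls depends on how the pools are scaled. With median ratio scaling 77 genes were higher at ZT19 and 55 at ZT23, and with quantile normalization 68 and 50, so the share of calls higher at ZT19 moved from 44.6% to 58.3% and 57.6%. The members just inside the 2-fold line were *Diras2* (log2 difference 1.0) and *Dtymk* (-1.0), and just outside it *Slc36a4* (0.99) and *Drd4* (-0.99).

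**Figure D1:**
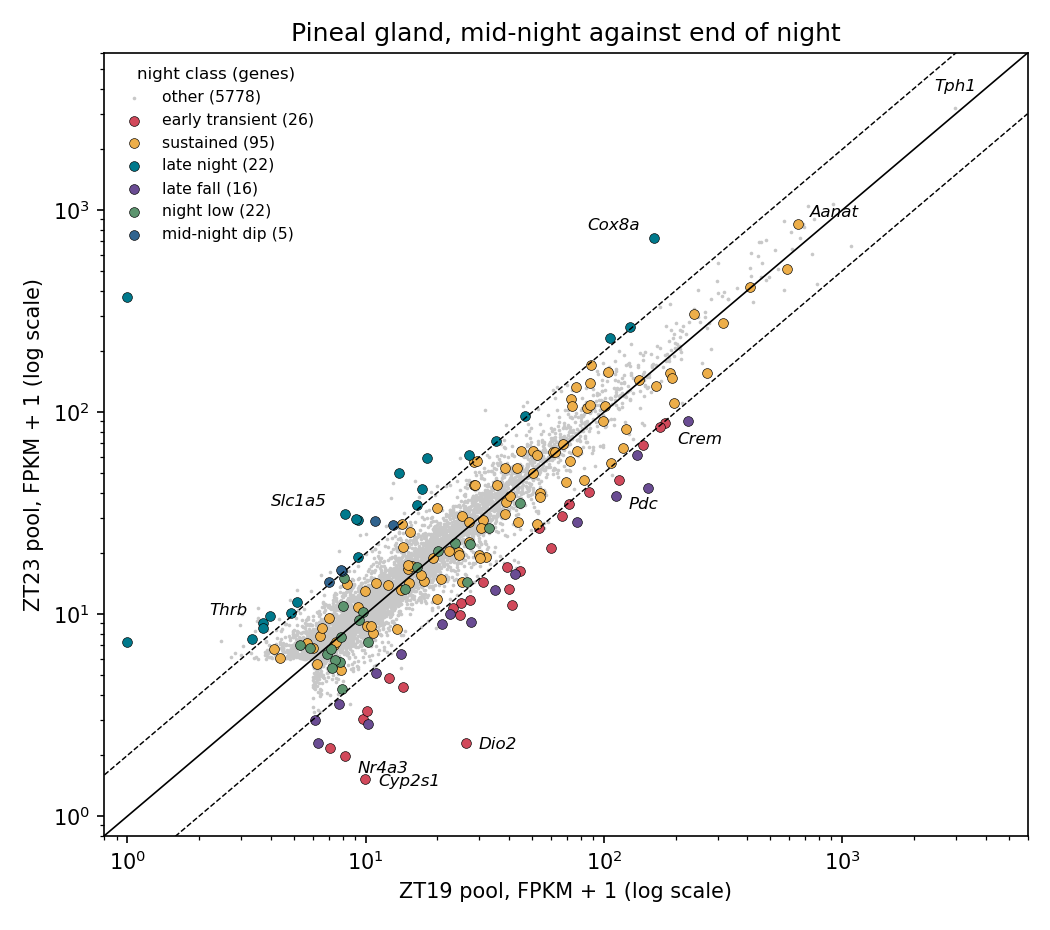
Level of each of the 5964 genes in the pineal ZT19 pool (x) and the ZT23 pool (y), as FPKM + 1 on log scales, 1 pool per time. The solid line marks equal levels, the dashed lines 2-fold, and colours the night classes; *Dio2* lies far below the lines and *Cox8a* far above, while *Aanat* and *Tph1* lie near equality.

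The step from ZT19 to ZT23 was smaller than the one before it and larger than those from ZT7 to ZT15. From ZT15 to ZT19, 5.84% of genes moved at least 2-fold in either direction, then 2.03% from ZT19 to ZT23, 1.85% from ZT23 to ZT1 and 1.94% from ZT1 to ZT7. From ZT7 to ZT13 and from ZT13 to ZT15 the shares were 0.602% and 0.596%. Neighbouring steps share a pool, so they are not independent. They also span unlike numbers of hours, and the shares were not scaled to time. Depth, estimated relative to the deepest library, was 0.41 and 0.45 at pineal ZT19 and ZT23. In the other pineal pools it was 0.59 to 0.64, and its part in the shares was not tested. In the retina the step from ZT19 to ZT23 moved 0.262% of 6116 genes.

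**Figure D2:**
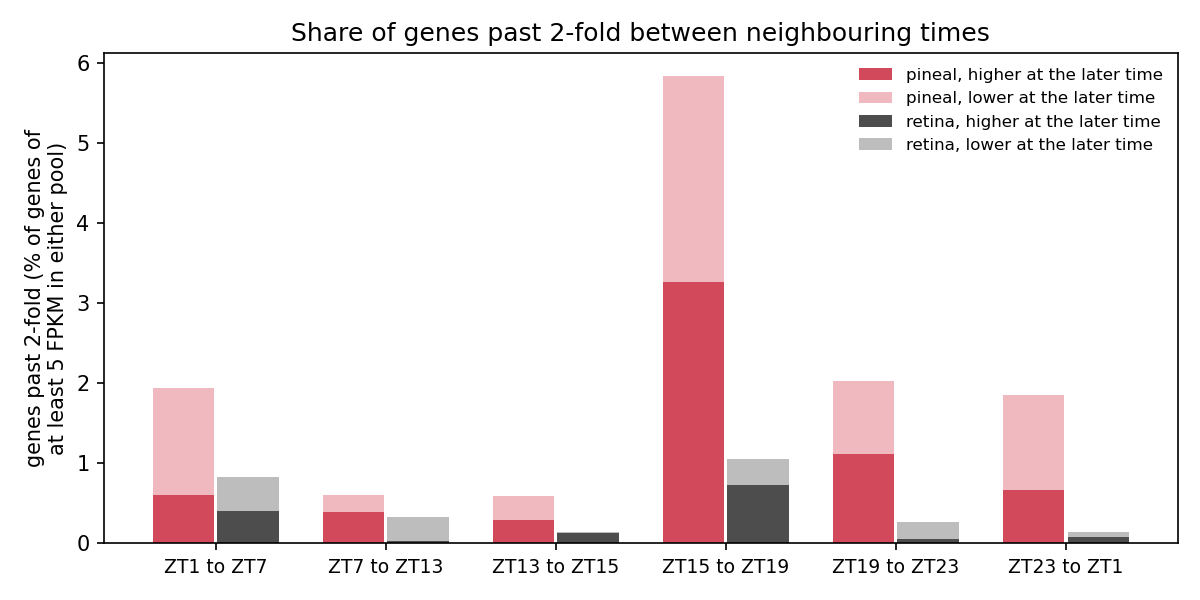
Share of genes past 2-fold between neighbouring times, in percent of genes with at least 5 FPKM in either pool of the step, for the pineal gland and the retina, with dark bars for higher and pale bars for lower at the later time. The pineal step from ZT19 to ZT23 (2.03%) lies below the onset step from ZT15 to ZT19 (5.84%) and close to the 2 steps after it (1.85% and 1.94%). The steps span unlike numbers of hours.

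The early transient genes were led by *Dio2*, the type II deiodinase that converts thyroxine into the active thyroid hormone. It was at 0.498, 0.285 and 0.209 FPKM in the ZT7, ZT13 and ZT15 pools, at 25.4 at ZT19, at 1.3 at ZT23 and at 0.499 at ZT1 (log2 difference 3.52; rn4 chromosome 6, 114307758 to 114317563). The mid-night pool is thus the only one of the 6 in which *Dio2* passed 5 FPKM. *Cyp2s1*, a cytochrome P450, had the same shape, with 0.426, 0.87 and 0.642 FPKM before, 8.98 at ZT19, 0.521 at ZT23 and 0.307 at ZT1 (2.71). *Nr4a3*, an orphan nuclear receptor and immediate early gene, went from at most 0.178 FPKM at ZT7 to ZT15 to 7.18 at ZT19 and was back at 0.987 at ZT23 and 0.137 at ZT1 (2.04). The size of these differences leans on the added 1 FPKM: with 5 FPKM added, the log2 differences of *Dio2*, *Cyp2s1* and *Nr4a3* were 2.27, 1.34 and 1.02.

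The early transient class also held *Dsc2* and *Pkp2*, which encode proteins of cell contacts. *Dsc2*, a desmosomal cadherin, was at 6.08 FPKM at ZT19 and 1.18 at ZT23, and at no more than 0.983 in the other 4 pools (1.70). *Pkp2*, a plaque protein of desmosomes, was at 58.7 FPKM at ZT19 and 20.4 at ZT23 (1.48), and is the only early transient gene whose ZT23 level lay below all 3 of its day and dusk levels (27.7 to 28.7 FPKM). Its ZT1 level was 35 FPKM.

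*Rgs2*, *Dusp1*, *Crem* and *Errfi1* encode proteins that restrain signalling; they are set together here by that role, after their values were seen. *Rgs2*, which limits signalling through heterotrimeric G proteins, was at 4.22, 4.06 and 5 FPKM in the ZT7, ZT13 and ZT15 pools, then 38.8 at ZT19, 12.4 at ZT23 and 5.32 at ZT1 (log2 difference 1.57). *Dusp1*, a phosphatase of MAP kinases, was at 2.43 to 3.25 FPKM at ZT7 to ZT15, 70.4 at ZT19, 33.9 at ZT23 and 3.9 at ZT1 (1.03). *Crem* was at 5.18, 6.08 and 8.49 FPKM, then 179, 87.5 and, at ZT1, 26.6 (1.03). Of these 3, *Rgs2* and *Dusp1* were near their day level at ZT1 and *Crem* was still above it. The values do not part ICER from the longer *Crem* forms, because all transcripts of the gene were added. *Errfi1*, an inhibitor of the EGF receptor, was at 22.1 FPKM at ZT19 and 9.78 at ZT23 (1.10).

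Members of other roles follow. *Irs2*, an adaptor of the insulin receptor, was at 2.79, 2.78 and 2.82 FPKM before, 85.7 at ZT19, 39.1 at ZT23 and 2.02 at ZT1 (log2 difference 1.11). *Coq10b*, needed for the function of coenzyme Q, was at 114 and 44.9 FPKM in the night pools and at 10.3 to 16.4 at ZT7 to ZT15 (1.33). *Per1*, a repressor of the clock that is also a CREB target, was at 24.2 and 10.4 FPKM, against 4.47 to 6.98 before and 4.23 at ZT1 (1.14). *Emd*, a protein of the inner nuclear membrane, was at 66 and 29.5 FPKM (1.14), and *Prox1*, a homeobox factor, at 24 and 8.95 (1.33). *Zrsr1* (145 and 67.4 FPKM) belongs to a family of near-identical copies, so its value is uncertain. Further members were *Osbpl6* (13.4 and 3.36 FPKM), *Plagl1*, *Lrrn3*, *Arhgef3*, *Prickle1*, *RGD1306809*, *Tc2n*, *B3gnt2*, *Mbnl2* and *Diras2*, with log2 differences between 1.0 and 1.72.

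Early transient did not mean gone by the end of the night. In 9 of the 26 genes the ZT23 level was still at least 2-fold over the highest of ZT7, ZT13 and ZT15: *Dusp1*, *Emd*, *Crem*, *Irs2*, *Coq10b*, *Zrsr1*, *Mbnl2*, *Lrrn3* and *Rgs2*. In the other 17 it was not. The ZT1 pool, which the rule did not use, shows what came next: 1 of the 26, *Crem*, was at least 2-fold over the day and dusk level, and the median log2 difference of ZT1 from that level was -0.08.

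**Figure D3:**
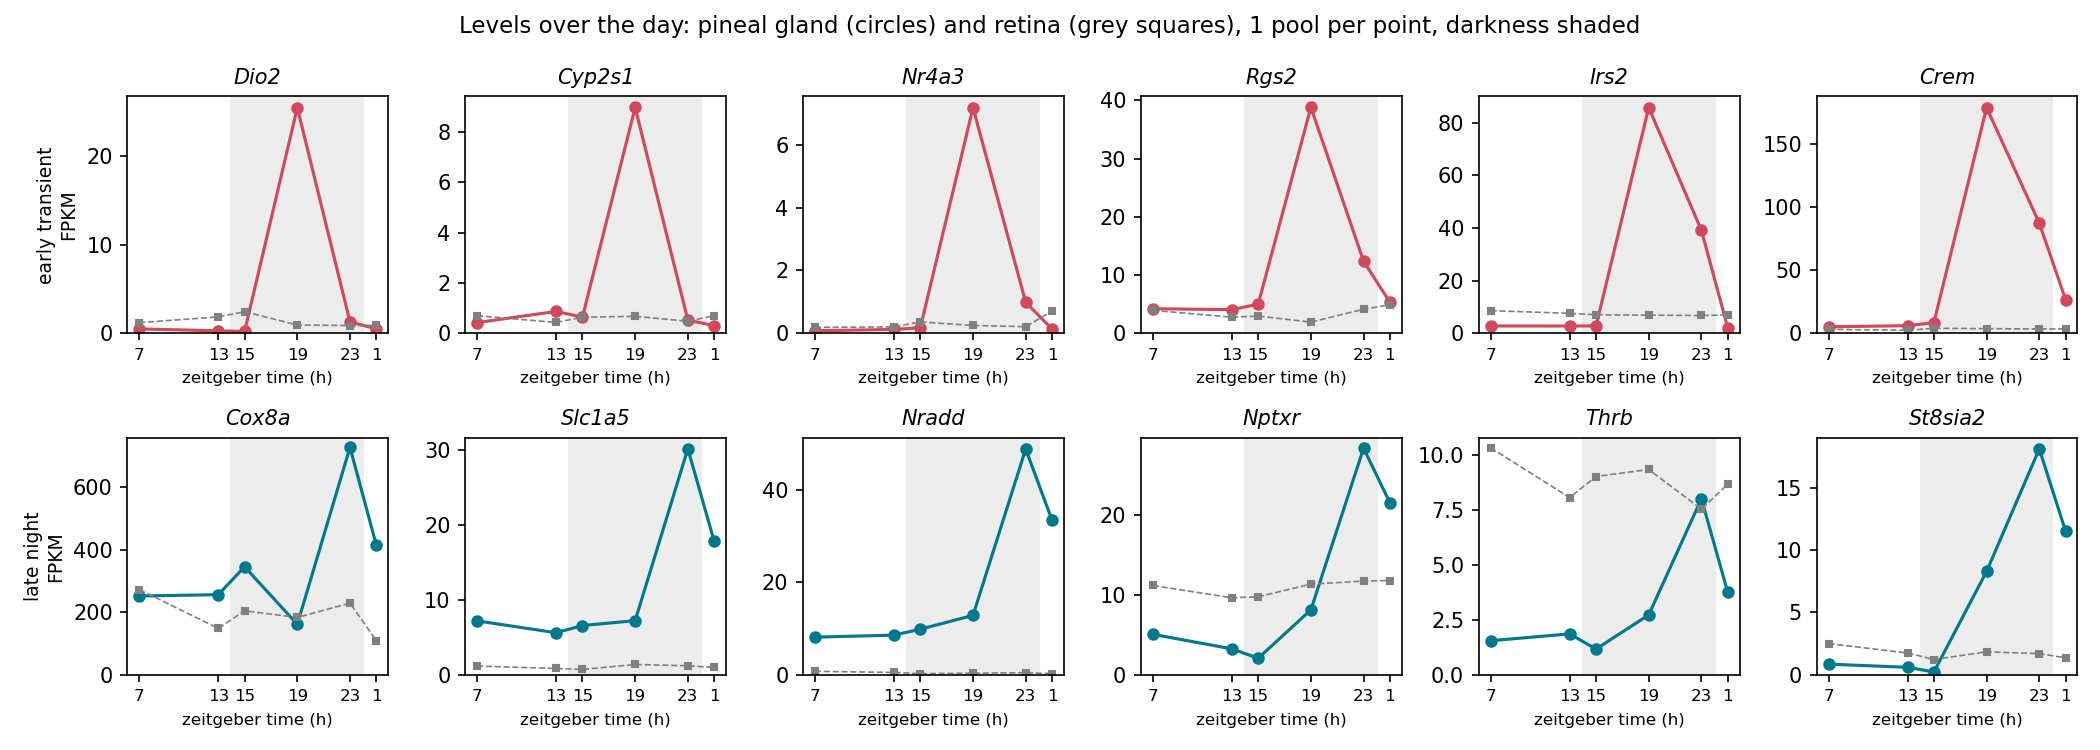
FPKM over zeitgeber time, from ZT7 to ZT1 of the next light phase, for 6 early transient genes (top) and 6 late night genes (bottom) in the pineal gland (coloured circles) and the retina (grey squares), 1 pool per point, with darkness shaded. The upper genes stand highest at ZT19 and the lower ones at ZT23, with ZT1 of the lower genes between the ZT23 and the day levels.

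Sustained genes were the most numerous night class and hold the melatonin enzyme *Aanat*. *Aanat* was at 7.05, 6.35 and 5.13 FPKM in the ZT7, ZT13 and ZT15 pools, 650.3 at ZT19, 857 at ZT23 and 396 at ZT1, so its ZT23 level was the higher of the night pools (log2 difference -0.40). Relative to day and dusk the 8 highest sustained genes were *Slc15a1*, *Aanat*, *Atp7b*, *Sik1*, *Dclk3*, *Hhip*, *Fcer1a* and *Ptch1*. *Slc15a1*, an oligopeptide transporter, was under 1 FPKM at ZT7 to ZT15 and at 270.0, 156 and 69.5 FPKM at ZT19, ZT23 and ZT1. *Atp7b*, a copper transporter, was at 139 and 144 FPKM and is level across the late night (-0.04). *Fcer1a*, a chain of the IgE receptor, was at 164, 134 and, at ZT1, 79.4 FPKM.

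Some sustained genes leaned to mid-night and others to the end of the night. *Sik1*, a kinase that restrains CREB coactivators, was at 68.3 FPKM at ZT19, 44.1 at ZT23 and 1.9 at ZT1, where it was back at its day level (1.8 at ZT7). *Dclk3*, a doublecortin-like kinase, was at 106, 54.8 and 9.09 FPKM in the same order (log2 difference 0.94). In the hedgehog pathway the receptor *Ptch1* was at 192, 147 and 16.2 FPKM, whereas *Hhip*, which binds hedgehog ligands, was at 28.3, 56.4 and 35.4. Both are induced by hedgehog signalling in other tissues, and here their log2 differences were 0.38 and -0.97. Across the class, ZT1 was at least 2-fold over day and dusk in 2 of the 14 genes that were at least 1.5-fold higher at ZT19, in 32 of the 66 within 1.5-fold, and in 13 of the 15 that were at least 1.5-fold higher at ZT23. The median log2 differences of ZT1 from the day and dusk level were 0.16, 0.96 and 1.33.

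**Figure D4:**
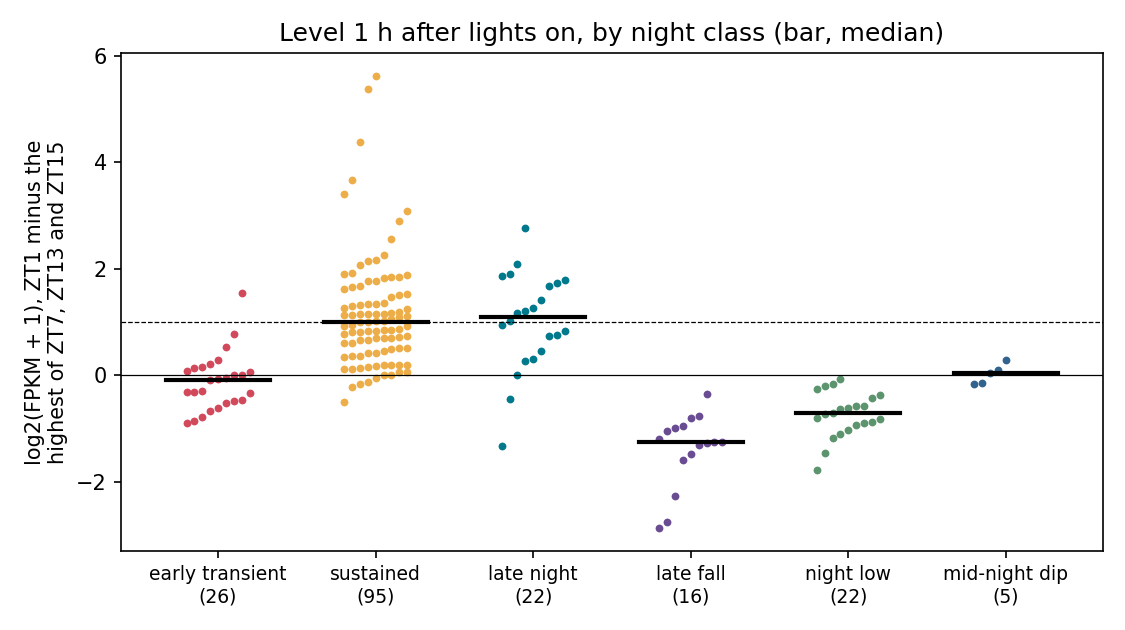
Difference of the ZT1 pool from the highest of ZT7, ZT13 and ZT15, as log2(FPKM + 1), for each gene (points) of the 6 night classes, with the median as a bar and 2-fold as a dashed line. The early transient genes centre on the day and dusk level (median -0.08), the sustained and late night genes about 2-fold above it (0.99 and 1.10).

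The late night genes with the largest differences hold entries whose values are hard to read. NM_001100994, a transcript with no gene ID in the table, was listed at 0 in the pineal pools other than ZT23 and at 369 FPKM there. It was also at 0 in the retinal pools except ZT15 (52.6) and ZT23 (208), and at 475 and 811 FPKM in the mixed tissue, an on and off pattern in both tissues. Its locus (rn4 chromosome 5, 146450567 to 146450916) lies within that of *Rpl37a-ps1* (146450564 to 146450916), a pseudogene counted in the sustained class. Reads of these entries and of *Rpl37a* may be split between them. The sum of the 3 went from 166 to 435.2 FPKM between ZT19 and ZT23 in the pineal gland and from 229.7 to 286.2 in the retina, while *Rpl37a* alone was lower at ZT23 in both tissues. The differences of these entries are therefore not read as changes of a gene. *Mir344a-2*, a microRNA precursor of about the length of a read, was listed at 0 in 4 pineal pools and at 6.27 FPKM at ZT23. *Cox8a*, a subunit of cytochrome c oxidase, was at 251, 256 and 345 FPKM in the ZT7, ZT13 and ZT15 pools, 161 at ZT19, 727 at ZT23 and 414 at ZT1 (log2 difference -2.17). It was below all day and dusk levels at ZT19, as was *Cdk5r2*, a neuronal activator of the kinase Cdk5 (8.33 FPKM at ZT19, 28.2 at ZT23), alone among the other late night genes.

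*Slc1a5*, *Nradd*, *Nptxr* and *Thrb* encode a transporter and receptors, and are set together by that role after their values were seen. *Slc1a5*, which carries glutamine and other neutral amino acids, was at 7.19, 5.6, 6.57 and 7.22 FPKM from ZT7 to ZT19, then 30.2 at ZT23 and 17.8 at ZT1 (log2 difference -1.93; rn4 chromosome 1, 77111082 to 77125166). *Nradd*, a homologue of the neurotrophin receptor p75, was at 8.09 to 12.8 FPKM from ZT7 to ZT19, 48.8 at ZT23 and 33.3 at ZT1 (-1.85). *Nptxr*, the neuronal pentraxin receptor, was at 2.05 FPKM at ZT15, 8.13 at ZT19, 28.4 at ZT23 and 21.6 at ZT1 (-1.69). For *Slc1a5* and *Nradd* mid-night was close to dusk and the higher level came between ZT19 and ZT23. *Thrb*, a receptor of thyroid hormone, was at 1.54, 1.86, 1.16 and 2.72 FPKM, then 8.02 at ZT23 and 3.75 at ZT1 (-1.28). The enzyme that activates the hormone, *Dio2*, and this receptor were thus highest in different pools of the night.

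In 4 late night genes the level was already at least 2-fold over day and dusk at mid-night: *St8sia2*, *Fry*, *Trank1* and *Asl*. *St8sia2*, a polysialic acid synthase, was at 0.213 FPKM at ZT15, 8.31 at ZT19, 18.2 at ZT23 and 11.5 at ZT1, and *Asl*, argininosuccinate lyase of arginine synthesis, at 10.3, 45.6, 94.9 and 84. The other 18 were not. Further members were *Defb24* (17.2 and 58.1 FPKM), *Kcna5*, a voltage-gated potassium channel (2.96 and 8.77), *Gda*, guanine deaminase (16.2 and 40.8), *Cabp1*, a calcium-binding protein of neurons (105 and 232), *Arpp21*, *RGD1359378*, *Atp5g1*, *Nphp4*, *Sdf2l1* and *Tmem229b*. After lights on, 12 of the 22 late night genes were at least 2-fold over day and dusk, with a median log2 difference of 1.10. Against ZT23, the median log2 difference of ZT1 was -0.71, so the typical ZT1 level lay between the ZT23 and the day level.

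Of the 67 genes higher at ZT23, 40 fell in none of the 6 classes, because ZT23 was not 2-fold over the day and dusk levels and ZT19 not 2-fold under them. *Tuba1b* and *Tubb2a*, tubulins of a family of similar genes that share reads, were at 44.6 and 15.7 FPKM at ZT19 and 107 and 36.9 at ZT23, with lowest levels at ZT15 (17.9 and 8.55) and rather high ones at ZT7 (64.8 and 22.1). They were chosen after their values were seen. By rule, *Tomm7*, of the mitochondrial import pore, was at 12 and 43.8 FPKM (log2 difference -1.79), *Chchd2*, a mitochondrial protein, at 30.5 and 101 (-1.70), *Bmyc* at 2.04 and 9.02 and *Serpina1*, antitrypsin, at 2.54 and 9.67. The genes higher at ZT23 lay in short loci: their median genomic span was 8186 bases (n = 65), against 26294 (n = 50) for those higher at ZT19 and 20524.5 for all genes with a span. In the fifth of genes with the shortest span the median log2 difference was -0.15 and 30 genes were higher at ZT23, and in the fifth with the longest span these were -0.017 and 11. The part of gene length in the result was not tested.

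Late fall genes had been at or near their day level at mid-night, or part of the way down, and were low at the end of the night. *Pdc*, phosducin, which binds the beta and gamma subunits of G proteins in photoreceptors, was at 378, 411 and 393 FPKM in the ZT7, ZT13 and ZT15 pools, 112 at ZT19, 37.2 at ZT23 and 147 at ZT1 (log2 difference 1.56). *Sag*, the visual arrestin, was at 350.4 FPKM at ZT15, 137 at ZT19, 60.6 at ZT23 and 46.9 at ZT1 (1.17). *Kit*, a receptor tyrosine kinase, stayed at 75 to 76.6 FPKM from ZT7 to ZT15 and at 76.3 at ZT19, and was at 27.6 at ZT23 and 31.6 at ZT1 (1.44). *Kit* was thus level from day to mid-night, whereas *Pdc* and *Sag* were already lower at ZT19 than at ZT15.

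The same class held the transcription factors *Neurod4* and *Pax4* and the cAMP pathway genes *Adcy1* and *Prkar2b*. *Neurod4*, a basic helix-loop-helix factor, was at 226, 225, 89.6 and 109 FPKM at ZT15, ZT19, ZT23 and ZT1 (log2 difference 1.32), and *Pax4*, a paired-box factor, at 58.3, 26.6, 8.1 and 7.77 (1.60). *Adcy1*, an adenylate cyclase, was at 5.32 and 1.3 FPKM (1.46, or 0.71 with 5 FPKM added), and *Prkar2b*, a regulatory subunit of protein kinase A, at 41.5 and 14.7 (1.43). *Mx2*, an interferon-induced GTPase, was at 9.27 and 1.85 FPKM (1.85). *Rpl37a* showed the largest log2 difference of the class (1.86, from 152 to 41.3 FPKM), but, as given with NM_001100994, the sum over the entries that may share its reads was higher at ZT23, so its direction is uncertain. At ZT1, 8 of the 16 late fall genes were still at least 2-fold under the lowest of ZT7, ZT13 and ZT15. Mid-night dip genes were few (5), with *Lingo3* at 9.93 FPKM at ZT19 and 27.9 at ZT23, and none remained with median ratio scaling or quantile normalization. In the night low class, *Sgk1*, a kinase induced by glucocorticoids, was at 7.13 and 14.1 FPKM, against 34.3 at ZT15.

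In the melatonin pathway few members passed 2-fold between the pools, and the list leaned to the end of the night by a small amount. Of 13 measured members none was at least 2-fold higher at ZT19 (0.905% of all genes) and 1 was at ZT23 (1.12% of all genes), *Spr*, which makes the tetrahydrobiopterin cofactor (1.82 and 5.39 FPKM). *Tph1*, the first enzyme from tryptophan, was at 2968 and 3213 FPKM (log2 difference -0.11), with 3795 at ZT7. *Asmt*, the last enzyme, was at 297 and 444 FPKM (-0.58). *Mat2a*, which makes the methyl donor that *Asmt* uses, went the other way, at 81.5 and 45.3 FPKM (0.83). The median over the pathway was -0.24, beside -0.08 over all genes, and 9 of the 13 were below 0. With median ratio scaling the pathway median was -0.15 and with quantile normalization -0.10, about the size of the glycolysis medians given below.

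CREB targets had most of their called members at mid-night but were not uniform. Of 21 measured members 5 were at least 2-fold higher at ZT19 (0.905% of all genes), *Crem*, *Dusp1*, *Per1*, *Nr4a3* and *Rgs2*, and 1 at ZT23 (1.12% of all genes), *Jund* (12.4 and 27.3 FPKM). The median log2 difference was 0.32, beside -0.08 over all genes, and 16 of the 21 were above 0. *Nr4a1*, a relative of *Nr4a3*, was at 37.6 and 30.2 FPKM and so within 2-fold, and *Fos*, the immediate early gene, was at 12.4 and 13.1. Of 22 members of adrenergic and cAMP signalling, 3 were higher at ZT19 (0.905% of all genes), *Adcy1*, *Prkar2b* and *Rgs2*, the last also a CREB target. None was higher at ZT23 (1.12% of all genes), and the median was 0.038. The beta receptor *Adrb1* was at 32.6 and 50.1 FPKM and the alpha receptor *Adra1b* at 42.9 and 65.1, both within 2-fold. Among 13 glucocorticoid-responsive genes 3 were higher at ZT19 (0.905% of all genes), *Dusp1*, *Errfi1* and *Per1*, each early transient. The median was 0.00094, and *Dusp1* and *Per1* are also counted as CREB targets.

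*Arntl* and its repressor *Nr1d1* went in opposite directions between the pools. *Arntl*, which encodes the activator BMAL1, was at 10.3, 3.38, 2.79 and 2.54 FPKM from ZT7 to ZT19, 8.59 at ZT23 and 12.5 at ZT1 (log2 difference -1.44). *Nr1d1*, a repressor of *Arntl*, was at 68.3 FPKM at ZT15, 34 at ZT19, 12.2 at ZT23 and 13.4 at ZT1 (1.41), and the output factor *Dbp* at 83.2, 40.8, 17.5 and 12.8 (1.17). *Per1* was highest at ZT19. Of 15 clock genes, 3 were higher at ZT19 (0.905% of all genes) and 1 at ZT23 (1.12% of all genes), with a median of 0.20; *Npas2* (9.7 and 16.6 FPKM) and *Cry2* (48.4 and 25.1) were within 2-fold.

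Genes of protein folding in the endoplasmic reticulum, of amino acid stress and of glycolysis leaned to the end of the night by small amounts. Of 24 chaperones and related genes 20 had a log2 difference below 0 and the median was -0.28, but only *Sdf2l1* passed 2-fold, from 3.84 to 9.12 FPKM. *Hspa5*, the main chaperone of this compartment, was at 238 and 305 FPKM, and *Calr*, calreticulin, at 181 and 265. In the amino acid stress list, 17 of 20 were below 0, with a median of -0.33, and *Chac1*, which degrades glutathione, was past 2-fold (1.97 and 7.79 FPKM). All 15 glycolysis genes were below 0, with a median of -0.23, and *Hk2*, a hexokinase, was past 2-fold (8.49 and 23.6 FPKM). Over all genes, 1.12% were at least 2-fold higher at ZT23. The median over all genes was itself -0.08 (quartiles -0.27 and 0.10), so more genes lay below 0 than above. The counts by sign carry that lean and were not repeated after scaling. Scaling moved the median over all genes to 0.006 (median ratio) or -0.0025 (quantile). The list medians then were -0.20 and -0.18 for the chaperones, -0.24 and -0.24 for amino acid stress, and -0.14 and -0.061 for glycolysis.

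As lists, oxidative phosphorylation and ribosomal protein genes did not share the size of the *Cox8a* difference (-2.17). Outside these lists, the mitochondrial genes *Tomm7* (-1.79) and *Chchd2* (-1.70) came nearer to it. Of 46 measured oxidative phosphorylation genes 2 were at least 2-fold higher at ZT23 (1.12% of all genes) and none at ZT19. They were *Cox8a* and *Atp5g1* (26.2 and 60.2 FPKM, 1 of several genes for the same protein), and the list median was -0.085. The ribosomal list does not hold *Rpl37a*, which was past 2-fold. Of its 59 genes found, 22 were in the filter and 11 were listed at 0 in both pools. None of the 22 ribosomal protein genes passed 2-fold (median -0.21), *Rps16* (0.76) and *Rps15* (-0.72) lying farthest out. None of 24 cytosolic heat shock genes did either (median 0.030), with *Hspa1b* and *Hspb1* farthest out (both 0.75).

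Photoreceptor and thyroid hormone genes were mixed. Over all genes of the filter, 0.905% were at least 2-fold higher at ZT19 and 1.12% at ZT23. Of 21 phototransduction genes, *Pdc* and *Sag* were higher at ZT19 and *Gucy2e*, a photoreceptor guanylate cyclase, at ZT23 (6.85 and 15.5 FPKM), with a median of -0.22. Of 17 transcription factors of the pineal and photoreceptor lineage, *Pax4* and *Neurod4* were higher at ZT19 and *Thrb* at ZT23 (median 0.24), while *Crx*, a master factor of the lineage, was at 274 and 275 FPKM. *Otx2* was at 212 and 109.9 FPKM (log2 difference 0.94), just under 2-fold. The 10 thyroid hormone genes held *Dio2* and *Thrb* past 2-fold in opposite directions, with a median of -0.22. *Irs2* was the only 1 of 16 insulin and IGF genes past 2-fold (median -0.12), and *Irs1* was at 66.3 and 64.5 FPKM. No gene passed 2-fold in the lists for cholesterol synthesis (14 genes, median -0.037), metal transport (19, -0.070), potassium channels (10, -0.44), BMP, TGF-beta and Notch targets (7, 0.24), hedgehog (4, 0.028) or extracellular matrix (14, -0.032). These lists are not complete. The potassium channel genes *Kcna5* (-1.30) and *Kcnmb2* (-1.07) and the matrix gene *Spon1* (-1.25) are not on them and were past 2-fold. Among the outermost members of the lists were *Tm7sf2* (-0.76), *Mt3* (-0.97) and *Slc39a8* (0.48), *Kcnh1* (-0.92) and *Kcnj14* (-0.85), *Id1* (-0.53) and *Bmp4* (0.44), *Hhip* and *Ptch1*, and *Mmp14* (-0.50) and *Timp3* (0.50).

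**Figure D5:**
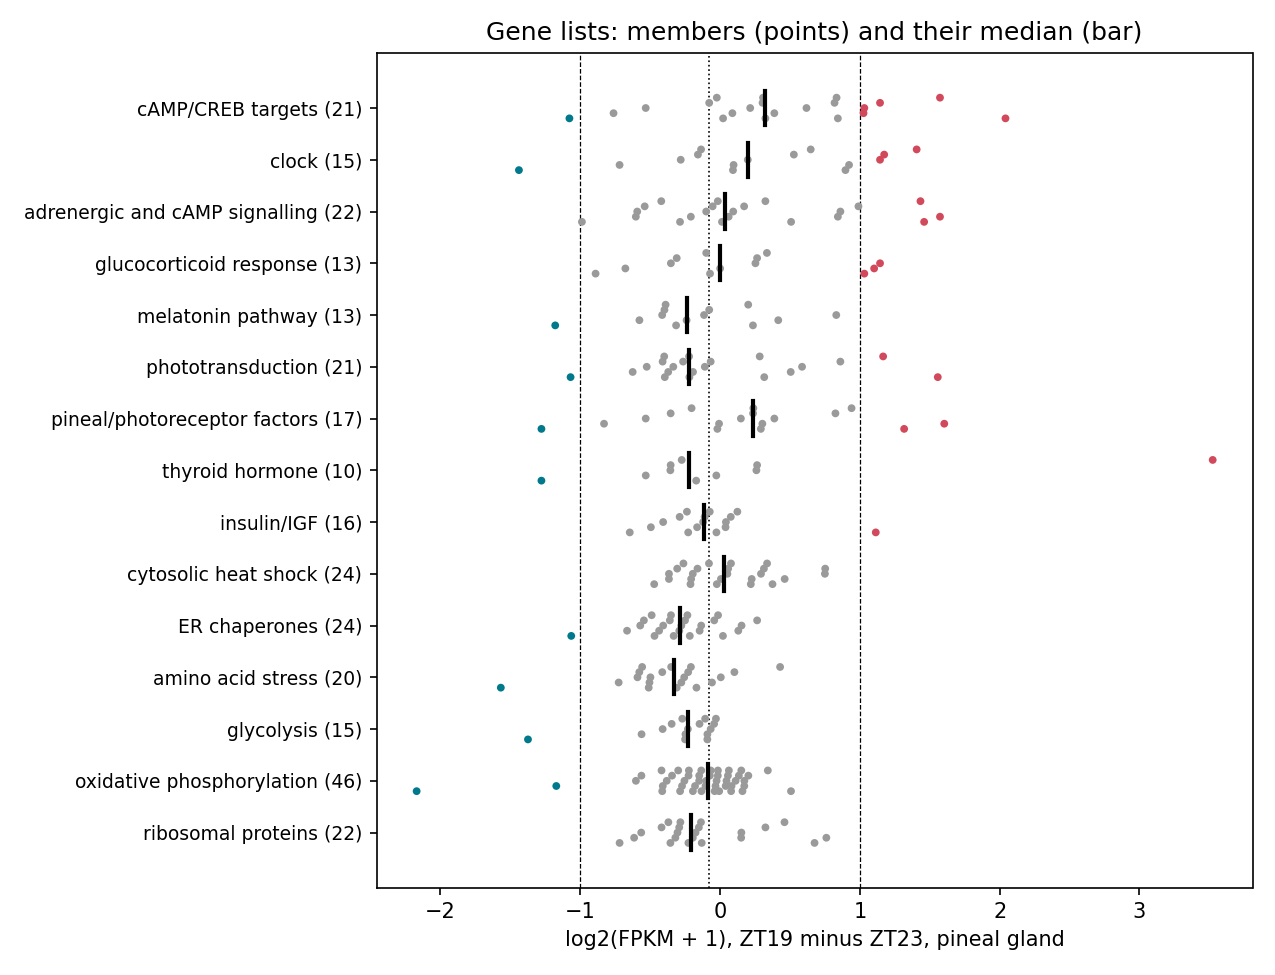
Log2 difference, ZT19 minus ZT23, of each measured member (points) of 15 gene lists in the pineal gland, with the list median as a bar, the median over all genes dotted and 2-fold dashed; numbers in brackets are measured members. CREB targets and clock genes reach past 2-fold mainly at ZT19, and glycolysis genes all lie below 0.

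Markers of other cells differed between the pools by less than 2-fold gene by gene. In bulk tissue, fewer cells of a type and less RNA per cell cannot be told apart. All 4 measured blood markers were lower at ZT19, *Alas2* (log2 difference -0.89) and *Hbb* (-0.63) the most. Over all 8 found, also those below the filter, levels summed to 1071 FPKM at ZT19 and 1611 at ZT23. In the other pineal pools the sum was 1619 to 2011. Meninges and choroid plexus markers summed to 1582 and 1009.7 FPKM over the 16 genes found, 10 of them in the filter. Most of this was transthyretin, *Ttr* (1087 and 664). The list also holds *Otx2* (log2 difference 0.94), which is counted among the pinealocyte genes as well. At ZT15, which is part of the day and dusk level, the sum was 4047. Without ZT15 that level can only be lower or equal, so all 26 early transient, 95 sustained and 22 late night genes had to keep their class. Only added members could show, and the classes then held 28, 107 and 27. Of the other lists, 6 of 8 microglia and macrophage, 5 of 7 glial, 2 of 6 neuronal and both oligodendrocyte markers were below 0, and all 3 endothelial or pericyte markers above 0. Over all genes the median was -0.08, so more genes lay below 0 than above. Defining genes of the pinealocyte were high in both pools, and their sum over 16 genes was 7950 and 7873 FPKM. Of the 16, 10 had a log2 difference above 0, with a median of 0.26. The part of these markers in the differences was not tested.

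In the retina, whose ZT19 and ZT23 pools were deeper by estimate than the pineal ones, fewer genes passed 2-fold. There 13 of 6116 genes (0.213%) were at least 2-fold higher at ZT19 and 3 (0.0491%) at ZT23, the former mostly crystallins and other genes of the lens, such as *Crygd* (400.3 and 65.4 FPKM) and *Lgsn* (17.5 and 0.367). Of the 121 pineal calls, 83 were among the measured retinal genes. Only *Rpl37a*, *Pax4* and NM_001100994 passed 2-fold in the same direction in both tissues, beside 0.262% of all retinal genes past 2-fold either way. Of these 3, *Rpl37a* and NM_001100994 may share reads and moved in opposite directions. Of the 26 early transient genes, 15 had at least 5 FPKM in a retinal night pool and none of them passed 2-fold there (median log2 difference of the 15, 0.025). Of the 22 late night genes 12 did, and 1, NM_001100994, passed 2-fold. At the retinal share of 0.262% few of 15 or 12 genes would pass, so these counts do not set the classes apart. *Pax4* was at 22.2 and 9.81 FPKM in the retina at ZT19 and ZT23. Over 5013 genes measured in both tissues the differences had a Pearson correlation of 0.149 and a Spearman correlation of -0.092, as a description across genes of 4 pools. In mixed tissue, none of 20 measured early transient genes and none of 14 late night genes differed 2-fold between ZT19 and ZT7, and of 62 sustained genes 2 were higher and 1 lower at ZT19. Over all 5478 genes of the pineal filter that were measured in mixed tissue, 0.11% were at least 2-fold higher at ZT19 and 0.237% lower.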

How the data were processed

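Polyadenylated RNA of 14 pools was sequenced as 101-base paired ends from random-primed libraries amplified with 16 PCR cycles, per the labels' protocols. Reads of overlapping genes cannot be separated, since strand handling is not given in the sources used here. TopHat 1.3.1, Cufflinks 1.2.0 and rn4 are listed, with no roles, per the submitters' processing notes. The authors deposited FPKM values, 1 per RefSeq transcript in each library; counts were not used. From these, 16932 transcripts were added up by gene ID to 16472 genes, with Python 3.11.15, pandas 2.3.3 and numpy 2.4.6. Dates that had replaced 24 symbols were turned back to gene names with a RefSeq table of GRCr8. Coordinates in rn4 are those of the deposited table, with 1 added to its starts, which count from 0.

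Depth can only be estimated: from the lowest values of olfactory receptor genes above 0, 1 fragment in a 1-kb transcript was worth about 0.0527 FPKM in the pineal ZT19 pool and 0.0479 in the ZT23 pool, or about 95 and 104 fragments at 5 FPKM, and the FPKM sums were 163087 and 176934. In the retinal ZT19 and ZT23 pools, 5 FPKM stood for about 172 and 232 fragments. The part of depth in the contrast of the tissues was not tested. The estimate covers counting error only.

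A gene was called at 2-fold on FPKM + 1 (4-fold also counted), among genes of at least 5 FPKM in either pool. The code of the class rules was run on simulated profiles with clear changes at high levels. That run checks the code only, and says nothing of genes near 2-fold or near 5 FPKM. With 1 pool per time there is no test and no p-value. Named by rule were the 12 largest differences in each direction, the 8 sustained genes highest over day and dusk, list members past 2-fold (or the 2 farthest out), and *Aanat*, *Asmt* and *Tph1*; other genes named were chosen after their values were seen. Some genes that the rule names are not reported here. The classes, lists and rules were chosen with earlier results of these data known. Alternatives were pseudocounts of 0.1 and 5 FPKM, filters of 1 and 20 FPKM, median ratio scaling, quantile normalization, single transcript rows and other day and dusk levels.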

Additional observations from a re-analysis of the deposited data

Results flagged for a closer look

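In 3 genes the pineal gland and the retina went in opposite directions between ZT19 and ZT23, past 2-fold in the pineal gland and past 1.5-fold in the retina, with 1 pool per tissue and time, so the difference was not tested. *Rgs2*, the brake on G protein signalling, had a log2 difference (ZT19 minus ZT23) of 1.57 in the pineal gland (38.8 and 12.4 FPKM) and -0.81 in the retina (1.93 and 4.14 FPKM). *Acy1*, an aminoacylase, had -1.16 in the pineal gland (11.2 and 26.2 FPKM) and 0.87 in the retina (14.4 and 7.40 FPKM). *H2afj*, a histone H2A variant, had -1.28 in the pineal gland (3.83 and 10.7 FPKM) and 0.86 in the retina (2.77 and 1.08 FPKM). The retinal levels of *Rgs2* and *H2afj* are below 5 FPKM.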

How the results depend on the processing

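Counts moved by over 1.5 times mainly with the pseudocount and the filter. With 5 FPKM added in place of 1, 28 genes were higher at ZT19 and 27 at ZT23, and the classes held 13 early transient, 9 late night, 61 sustained, 7 late fall, 0 mid-night dip and 10 night low genes. With a filter of 20 FPKM, 36 genes were higher at ZT23, and there were 14 late night, 9 late fall, 2 mid-night dip and 5 night low genes, since fewer genes were counted; in the retina 1 gene was then higher at ZT23. A filter of 1 FPKM gave 9 mid-night dip genes, and a pseudocount of 0.1 FPKM gave 5 retinal genes higher at ZT23. Median ratio scaling left 0 mid-night dip and 11 night low genes, and quantile normalization 0 mid-night dip genes. Taking the mean of ZT7, ZT13 and ZT15 as the day and dusk level gave 35 late night and 36 night low genes. The other counts stayed within 1.5 times. All 26 early transient genes kept their class under each scaling, and 16 of the 22 late night genes did under each. Both scalings raised the median over all genes, from -0.08 to 0.006 and -0.0025, toward calls higher at ZT19. These shares therefore do not rank the 2 classes by stability. Over 415 values of 84 named genes under an alternative, 395 stayed within 1.5-fold of the reported difference, and the sign differed in 3, of *Atp7b* and *Tph1*. With 5 FPKM added, several list members called at 2-fold came under it, among them *Adcy1* (0.71), *Arntl* (-0.85), *Chac1* (-0.88), *Thrb* (-0.75) and *Per1* (0.92). Others, such as *Rgs2* (1.33) and *Hk2* (-1.08), stayed past it. List medians kept their sign in 161 of 173 cases. With the filter of 20 FPKM those of the clock and glucocorticoid lists were 0.92 and 1.03. The median of the BMP, TGF-beta and Notch targets changed sign, from 0.24 to -0.37 with that filter and to -0.069 with 1 FPKM. No paired analysis was possible because each tissue and time has 1 pool. The low depth of the pineal ZT19 and ZT23 pools limits genes near 5 FPKM most.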
